A study of Mus musculus with 6 samples.

Results

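Lpl, the gene of the secreted enzyme lipoprotein lipase, was described together with 7 genes of fat cell formation and lipid storage: Pparg, Cebpa, Cebpb, Cebpd, Fabp4, Cd36 and Plin2. These 8 genes are named members below. They were taken by symbol from the 24062 genes of the count table, and all 8 were among the 14090 genes with enough counts to be tested. RNA was sequenced from mouse embryonic fibroblasts, which are connective tissue cells cultured from embryos, here of C57BL/6 mice. The p27 OE group (3 libraries) overexpressed p27, the product of Cdkn1b and an inhibitor of cyclin-dependent kinases, from a lentivirus, and the cells were harvested at day 4, when the labels call them non-senescent. The EV control group (3 libraries), whose abbreviation the labels do not spell out, was also taken at day 4. The labels give neither the promoter of the vector nor whether the libraries of a group came from separate cultures, so p-values measure only the spread between these libraries. The comparison describes how gene expression differed between p27 OE and EV control at day 4. A bracketed dataset tag closes every EV control title and is absent from every p27 OE title. What the tag stands for is not explained. It coincides with the group, so a separate origin of the controls was not tested apart from p27.

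Fat cell formation in culture follows a cascade of transcription factors. C/EBPβ and C/EBPδ act early and help to switch on PPARγ and C/EBPα, which maintain each other and turn on genes of the mature fat cell. Among those targets are Fabp4, a fatty acid carrier, Cd36, a receptor for fatty acid uptake, and Lpl, which releases fatty acids from circulating triglyceride. Plin2 coats lipid droplets in many cell types. Fibroblasts express several of these genes without being fat cells.

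Total counts ran from 34920728 to 52098220 per library. Cdkn1b stood between 49.9 and 52.2 CPM (library-scaled counts, by the TMM method) in the controls, and with p27 OE it lay between 419 and 978 CPM, the highest in p27 OE 2. On the first principal component, with 58.9% of the variance, the 2 libraries numbered 1 lay far from the rest. They had Xist at 317 and 477 CPM, against at most 9.57 CPM in the other 4, and the Y-linked Ddx3y at no more than 0.0556 CPM, against at least 54.3 CPM. All 12 fibroblast markers examined were tested. Col1a1, a chain of type I collagen, was the highest, at 23748 ± 1431 CPM (mean ± SD, n = 3) in the controls against 26301 ± 367 CPM with p27 OE.

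Lpl was lower in p27 OE, while the 4 regulators and the other 3 genes of lipid handling showed no shift of that size. Without pairing, edgeR called 0 of 14090 genes at an adjusted p of 0.05 (0.00%), none of the members among them, although 1017 genes had an unadjusted p under that value. DESeq2 without pairing called 53 genes higher and 36 lower. With the number in the library's title as a block, which pairs EV control and p27 OE libraries of the same number, edgeR called 7.43% of tested genes (535 higher and 512 lower), and 1 of the 8 members, Lpl. Lpl was chosen by its lower CPM in p27 OE in this same comparison, and the other 7 were added to it with those results known. Their values are therefore a description, and nothing is read from that count. The groups did not overlap for 2 of the 8, Lpl and Plin2, against 14.9% of tested genes. The overexpressed gene itself, Cdkn1b, was called by edgeR in neither fit. DESeq2 called Cdkn1b without pairing (DESeq2 adjusted p 3.9e-27) and with it (6.0e-16). Another test, limma-voom, called Cdkn1b with pairing (limma-voom adjusted p 2.86e-05) and not without (0.0847). Its log2 fold change was 3.60 ± 0.35 without pairing (edgeR adjusted p 0.180) and 3.48 ± 0.42 with pairing (edgeR adjusted p 0.0873). A gene that was not called is thus not shown to be unchanged.

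Lpl is on the forward strand of chromosome 8, between positions 68880491 and 68907448 (GRCm38). In numbers 1, 2 and 3 it stood at 18.98, 24.5 and 23.9 CPM in the controls, and the p27 OE libraries had 13.7, 12.6 and 12.04 CPM, from 454 to 1192 counts each. All 3 p27 OE libraries were below all 3 EV control libraries, and they lay closer together than the controls. Groups that do not overlap, with p27 OE lower, were found for 8.28% of tested genes. In bulk RNA, fewer cells that express a gene and less RNA per cell cannot be told apart. The level in p27 OE was 0.721, 0.513 and 0.504 times that in EV control in numbers 1, 2 and 3, so the difference was smallest in the libraries that stood apart. The paired log2 fold change was -0.80 ± 0.11 (SE, n = 3 pairs), with a 95% interval from -1.03 to -0.57, and without pairing it was -0.81 ± 0.13. It was -0.98 without the libraries numbered 1 and -0.71 without those numbered 3.

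**Figure D1:**
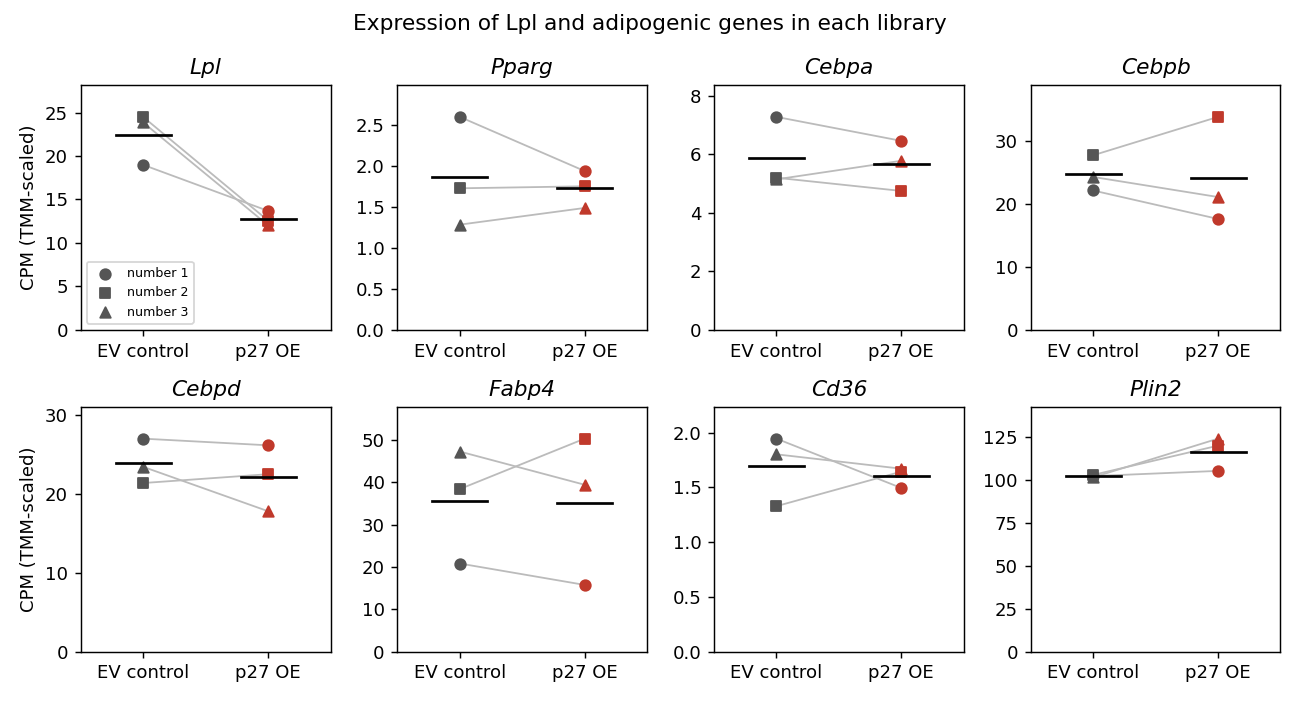
Expression in CPM (vertical axes, linear, from 0) of the 8 genes in the 3 EV control and 3 p27 OE libraries. Symbols mark the number in the library's title, grey lines join libraries of one number, and black bars are group means. Lpl is lower in all 3 p27 OE libraries (12.0 to 13.7 CPM) than in the controls (19.0 to 24.5 CPM), and Fabp4 differs mainly between number 1 and the other numbers.

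Pparg encodes the nuclear receptor that directs fat cell differentiation. It was near the low end of what was tested, at 2.59, 1.72 and 1.28 CPM in controls 1, 2 and 3, while p27 OE 1, 2 and 3 had 1.93, 1.75 and 1.48 CPM. The groups overlapped, and the ratio of p27 OE to EV control was below 1 in number 1 (0.746), near 1 in number 2 (1.01) and above 1 in number 3 (1.16). With 56 to 140 counts per library, the paired log2 fold change of -0.09 ± 0.23 has a 95% interval from -0.58 to 0.41.

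Cebpa, whose product works with PPARγ, was at 7.28, 5.20 and 5.14 CPM in the controls against 6.46, 4.75 and 5.78 CPM with p27 OE, again with overlapping groups. Its paired log2 fold change was -0.05 ± 0.13, with an interval from -0.34 to 0.24.

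The early factor Cebpb was at 22.1, 27.7 and 24.3 CPM in the controls, and the p27 OE libraries had 17.6, 33.8 and 21.1 CPM. Its p27 OE libraries spread on both sides of the controls, and the ratio was above 1 in number 2 (1.22) and below 1 in number 1 (0.796) and number 3 (0.869). The paired log2 fold change was -0.08 ± 0.11 (95% interval from -0.33 to 0.17). Cebpd, the other early factor, stood at 27.1, 21.4 and 23.5 CPM in the controls against 26.2, 22.5 and 17.8 CPM with p27 OE. Only p27 OE 3 fell outside the range of the controls, and the paired log2 fold change was -0.12 ± 0.09 (interval from -0.32 to 0.08). The annotated exons of Cebpd overlap those of Spidr on the opposite strand, and the library kit does not mark strand, so some of its reads could belong to Spidr.

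Fabp4, the fatty acid carrier, was at 20.8, 38.4 and 47.3 CPM in the controls, and the p27 OE libraries had 15.8, 50.4 and 39.4 CPM. The libraries numbered 1 were the lowest of both groups, and the ratio between the groups was 0.757, 1.31 and 0.834 in numbers 1, 2 and 3. The paired log2 fold change was -0.08 ± 0.17, with an interval from -0.53 to 0.36. Cd36, the uptake receptor, was as low as Pparg, at 1.94, 1.33 and 1.80 CPM in the controls against 1.49, 1.64 and 1.67 CPM with p27 OE. Its p27 OE libraries lay inside the range of the controls, and the paired log2 fold change of -0.08 ± 0.24 has an interval from -0.59 to 0.43.

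Plin2, the lipid droplet coat, was at 102.4, 103.1 and 101.7 CPM in the controls, and the p27 OE libraries had 105.4, 120.2 and 124.3 CPM. The groups did not overlap, as for 6.61% of tested genes with p27 OE higher, and the ratio was 1.03, 1.17 and 1.22 in numbers 1, 2 and 3. The paired log2 fold change was 0.18 ± 0.06, with a 95% interval from 0.06 to 0.31, and edgeR called it neither with nor without pairing. It was 0.26 without the libraries numbered 1. Thus the 2 members whose groups did not overlap differed in opposite directions.

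**Figure D2:**
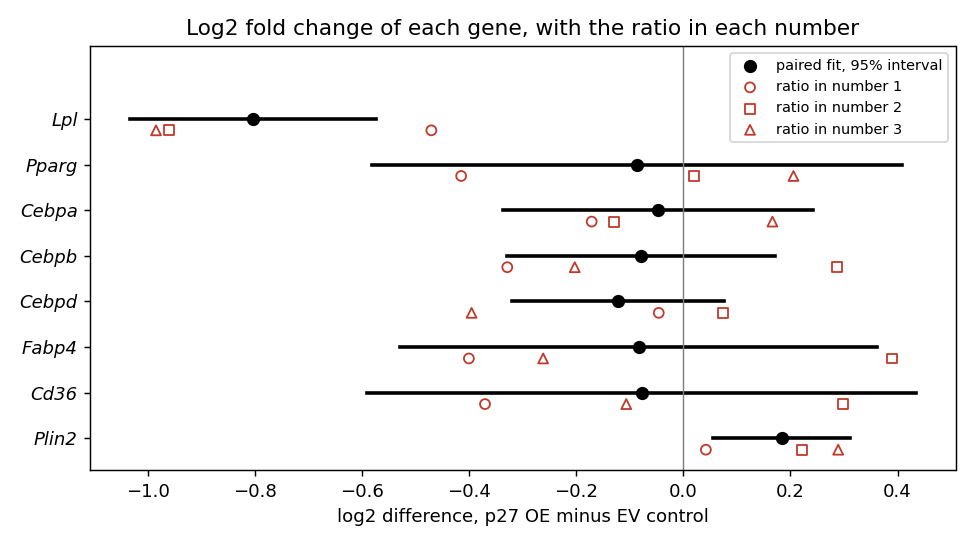
Log2 fold change of p27 OE over EV control (horizontal axis) for each gene. Black points and bars are the paired edgeR estimate with its 95% interval, and open symbols are the log2 ratios in numbers 1, 2 and 3. The interval of Lpl, from -1.03 to -0.57, lies below 0, that of Plin2, from 0.06 to 0.31, lies above 0, and the other 6 include 0. The intervals are not adjusted for the number of genes tested, and Plin2 was not called (paired edgeR adjusted p 0.0767). The genes were chosen with these results known, so the intervals are description only.

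The members also differed in what set their spread. For Lpl, 90.7% of the variance of log2 CPM over the 6 libraries lay between the groups and 1.42% between the numbers. For Fabp4 the shares were 0.535% and 91.8%, and its mean over both groups was 18.3 CPM in number 1 against 44.4 and 43.4 CPM in numbers 2 and 3. Pparg (81.2%), Cebpa (85.9%), Cebpb (78.3%) and Cebpd (65.3%) also varied mainly between numbers, and Plin2 mainly between groups (61.7%). Cd36 varied mainly in neither way, with 33.9% between numbers and 2.96% between groups. Over all tested genes the median share was 60.1% between numbers and 13.2% between groups. Since Lpl was chosen by its lower CPM in p27 OE, a large share between groups was favoured in advance and is description only. Pparg, Cebpa and Cebpd were highest in number 1, whereas Cebpb and Fabp4 were lowest there.

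Levels of different genes were set side by side as CPM per kilobase of exon, with exon lengths from GENCODE M21. In EV control the order was Plin2 (54.2 ± 0.375, mean ± SD, n = 3), Fabp4 (39.6 ± 15.03), Cebpb (16.4 ± 1.87), Cebpd (6.40 ± 0.762), Lpl (5.46 ± 0.733), Cebpa (2.23 ± 0.462), Pparg (0.785 ± 0.281) and Cd36 (0.478 ± 0.0913). The order of the means was the same in p27 OE. In EV control the ranges of Cebpd (5.72 to 7.22) and Lpl (4.61 to 5.95) overlapped, as did those of Pparg and Cd36 (0.539 to 1.09 and 0.376 to 0.550). In p27 OE, Lpl (2.92 to 3.33) lay below Cebpd (4.76 to 6.997) and above Cebpa (1.80 to 2.45) in all libraries. Fabp4 (17.6 to 56.2) overlapped both Plin2 and Cebpb in p27 OE, but neither in EV control.

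The genes around these members were examined as 6 lists with 136 entries, of which 117 were tested. With pairing, edgeR called 2 of the 117 higher and 3 lower, against 3.80% and 3.63% of all tested genes, and without pairing it called 0. Without the libraries numbered 1 the paired counts were 7 and 9, against 893 higher and 848 lower among all 14036 genes tested there. With upper-quartile scaling in place of TMM the list counts were 1 and 12. That scaling also turned the split over all genes to 483 higher and 736 lower. With TMM and no filter the list counts were 2 and 11, against 689 higher and 727 lower among all 18199 genes tested there.

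None of the 23 tested adipogenic transcription factors and coactivators was called by paired edgeR (median log2 fold change -0.02, against 0.00 over all tested genes), and 1 had an unadjusted p under 0.05 without pairing. The most abundant, the Krüppel-like factor gene Klf6, was at 191 ± 24.8 CPM in the controls against 205 ± 36.6 CPM with p27 OE (0.09 ± 0.05). The PPARγ partner gene Rxra (-0.21 ± 0.06, adjusted p 0.0551) and the lipogenic factor gene Srebf1 (-0.20 ± 0.06, adjusted p 0.0553) stood just outside the threshold and were named after their values were seen. Without the libraries numbered 1, paired edgeR called both lower. Neither was called without those numbered 2 (edgeR adjusted p 0.132 for Rxra and 0.213 for Srebf1) or 3 (0.431 and 0.395).

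Among 23 inhibitors of adipogenesis, paired edgeR called Dlk1 and Zfp521 lower and none higher (median -0.03). Dlk1, the preadipocyte surface protein also known as Pref-1, was at 421, 83.95 and 93.5 CPM in controls 1, 2 and 3, while p27 OE 1, 2 and 3 had 269.9, 63.0 and 55.6 CPM. It was far higher in number 1 than in the other numbers, so the groups overlapped, but it was lower in p27 OE within each number. The paired log2 fold change of Dlk1 was -0.60 ± 0.07 (edgeR adjusted p 0.000220). Zfp521, a zinc finger factor that holds back fat cell commitment, followed the same layout over the numbers (141.5, 57.1 and 55.01 CPM against 112.7, 43.96 and 46.2 CPM). Its log2 fold change was -0.32 ± 0.06 (edgeR adjusted p 0.00564). Both remained called without the libraries of any 1 number, and without pairing their edgeR adjusted p were 0.935 and 0.952. The most abundant of the list, the β-catenin gene Ctnnb1, differed by -0.03 ± 0.05 and was not called.

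None of the 16 tested partners of lipoprotein lipase and lipoprotein receptors was called by paired edgeR (median 0.04), and 2 had an unadjusted p under 0.05 without pairing. Gpihbp1, which carries the enzyme to the capillary surface, had 0 counts in all 6 libraries, and Apoc2, its protein cofactor, was at no more than 0.120 CPM. Lmf1, which is needed for folding of the enzyme, was at 26.02, 23.1 and 25.3 CPM in the controls against 24.3, 23.1 and 25.7 CPM with p27 OE. The library values of Lmf1 thus overlapped, with a log2 difference of -0.02 ± 0.07. Gpihbp1, Apoc2, Lmf1, Angptl4 and Lrp1 were chosen after their values were seen.

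Angptl4, which encodes a secreted inhibitor of lipoprotein lipase, was uneven. It was at 24.2, 3.73 and 3.02 CPM in controls 1, 2 and 3, while p27 OE 1, 2 and 3 had 27.4, 23.4 and 7.26 CPM. It was higher in p27 OE within each number, by 1.13, 6.28 and 2.40 times, but the groups overlapped and the log2 difference of 1.23 ± 0.71 was not called (edgeR adjusted p 0.464). Hilpda, a lipid droplet gene also chosen after its values were seen, was highest in the same library, p27 OE 2, at 42.1 CPM against 13.6 to 21.1 CPM in the other 5. Hspg2, the perlecan gene and the most abundant of the list, was at 827 ± 165 CPM in the controls against 1304 ± 106 CPM with p27 OE (0.67 ± 0.18, edgeR adjusted p 0.135). The lipoprotein receptor gene Lrp1 was at 562 ± 47.2 and 857 ± 265 CPM (0.57 ± 0.17, edgeR adjusted p 0.165). In both Hspg2 and Lrp1 the groups did not overlap, as for 6.61% of tested genes with p27 OE higher. Paired edgeR called both higher without the libraries numbered 1 or those numbered 3. Neither was called without those numbered 2 (edgeR adjusted p 0.528 for Hspg2 and 0.514 for Lrp1). The paired log2 fold change of Lrp1 was 0.35 without the libraries numbered 1, where its p27 OE level was highest, and that of Angptl4 was 1.99 without those numbered 1 and 0.58 without those numbered 2.

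Of 17 tested genes of fatty acid uptake, binding and activation, paired edgeR called 1 lower (median 0.00). This was Acsl3, an acyl-CoA synthetase of the endoplasmic reticulum and lipid droplets, which went from 54.9 ± 3.33 to 47.0 ± 6.92 CPM (-0.23 ± 0.07, edgeR adjusted p 0.0489). Its adjusted p was between 0.0780 and 0.146 without the libraries of any 1 number. Cav1, the caveolin gene and the most abundant of the list, differed by 0.05 ± 0.05 and was not called.

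Of 19 tested genes of lipid droplets, triglyceride synthesis and lipolysis, 2 rose in paired edgeR and none fell (median -0.05). Lpin3, a phosphatidate phosphatase gene, was at 13.3, 18.7 and 17.3 CPM in the controls, and the p27 OE libraries had 16.7, 26.5 and 24.5 CPM. It rose within each number (0.44 ± 0.08, edgeR adjusted p 0.00642), and the adjusted p was 0.0668 when number 3 was left out. Mgll, the monoacylglycerol lipase gene, rose by 0.33 ± 0.09 (edgeR adjusted p 0.0448, but 0.265 with number 2 left out and 0.155 with number 3 left out). Agpat1, an acyltransferase gene and the most abundant of the list, differed by 0.05 ± 0.06. None of the 19 tested genes of fatty acid oxidation was called by paired edgeR (median -0.07), and 1 had an unadjusted p under 0.05 without pairing. The trifunctional enzyme gene Hadha, the most abundant of them, was at 106 ± 9.27 CPM in the controls against 108 ± 2.02 CPM with p27 OE.

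**Figure D3:**
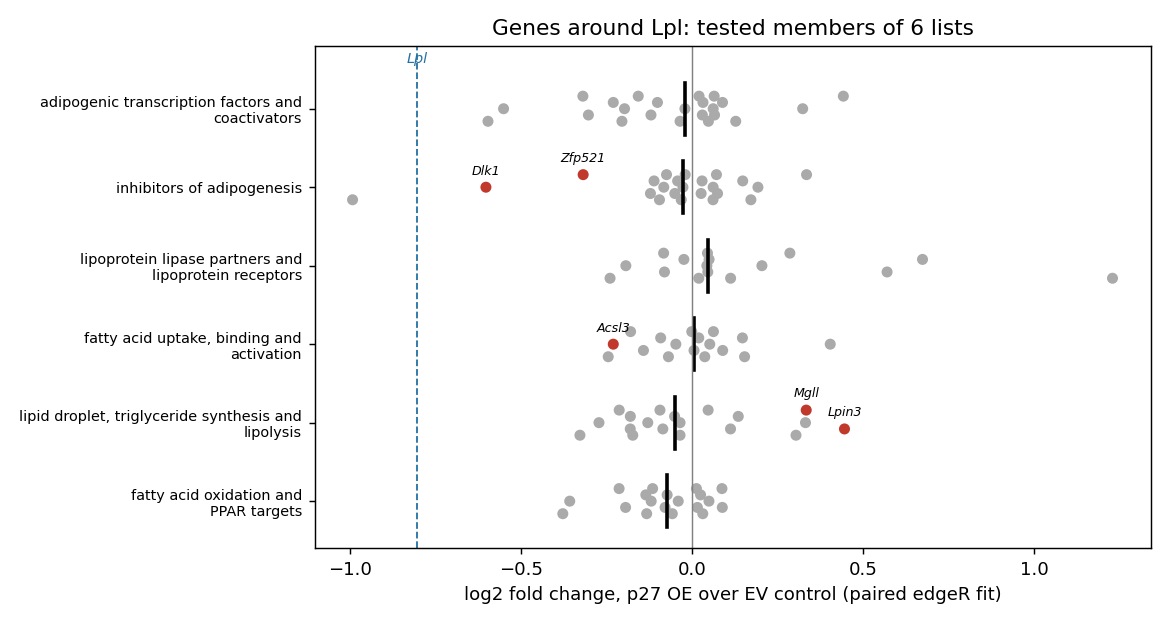
Log2 fold change of p27 OE over EV control from the paired edgeR fit (horizontal axis) for each tested gene of the 6 lists. Red points passed an adjusted p of 0.05 and are named, grey points did not, black bars are list medians, and the dashed line marks Lpl at -0.80. The medians lie between -0.07 and 0.04.

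Markers of cell types that also express members were followed in the same libraries. Of 16 adipocyte markers, 4 had enough counts to be tested and none was called. Cfd, Cidec, Cidea, Ucp1 and Lgals12 had 0 counts in all libraries, and Slc2a4, the insulin-responsive glucose transporter gene and the highest tested, was at 2.59 ± 0.279 CPM in the controls against 2.13 ± 0.141 CPM with p27 OE. The summed level of the list was 5.80 to 7.29 CPM in the controls against 4.86 to 5.59 CPM with p27 OE, lower without overlap. Single genes with that layout made up 8.28% of all tested genes.

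Of 18 tested macrophage markers (20 in the list, none at 0 counts throughout), Emr1, the F4/80 gene, rose from 2.06 ± 0.132 to 3.64 ± 1.24 CPM (edgeR adjusted p 0.0326, but 0.188 with number 2 left out and 0.0658 with number 3 left out), and none fell. Their summed level was 70.3 to 84.98 CPM in the controls against 69.7 to 118 CPM with p27 OE, with the largest part from the lysozyme gene Lyz2 (38.8 ± 4.75 and 40.4 ± 12.3 CPM). Of 8 tested endothelial markers (14 in the list, with Sox17 at 0 counts), Emcn rose from 1.02 ± 0.109 to 1.96 ± 0.291 CPM (edgeR adjusted p 0.0354, but 0.0689 with number 2 left out and 0.226 with number 3 left out). Flt1 was the highest, at 58.9 ± 17.5 and 71.5 ± 26.4 CPM, and the sum was 77.7 to 105 CPM in the controls against 74.8 to 119 CPM with p27 OE. Over all tested genes, paired edgeR called 3.80% higher.

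Of 7 tested skeletal muscle markers (12 in the list, Myf5 and Ckm at 0 counts), Des, Acta1 and Myom1 rose in paired edgeR, which called 3.80% of all tested genes higher. Their paired log2 fold changes were 0.69 ± 0.06 (Des), 1.38 ± 0.06 (Acta1) and 0.94 ± 0.08 (Myom1). Without pairing, the edgeR adjusted p of each was 0.683. The sum went from 116 to 197 CPM in EV control to 204 to 366 CPM in p27 OE. Single genes higher in p27 OE without overlap made up 6.61% of all tested genes. Of the 12 fibroblast markers, Pdgfra, a receptor also found on adipose progenitors, fell by 0.48 on the log2 scale (edgeR adjusted p 0.000575), and Lum and Twist1 fell with adjusted p of 0.0430 and 0.0483 by edgeR. Paired edgeR called 3.63% of all tested genes lower. Lum was no longer called without the libraries numbered 1 (0.100) or 3 (0.313), nor Twist1 without those numbered 2 (0.318) or 3 (0.159). The summed fibroblast level was 54612 to 59638 CPM in the controls against 58558 to 60514 CPM with p27 OE. The part of these marker levels in the values of Lpl was not tested.

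Among the 10608 other genes that averaged 5 CPM or more, those whose log2 CPM followed Lpl most closely over the 6 libraries were Tctn1 (Pearson r 0.998), H2-Ke6 (0.992), Tmem242 (0.991), Pdxk (0.990) and Fndc4 (0.988). With the mean of each number removed they were Zfp28, Abhd14a, Tmem256, Tgfbr3 and Htatip2, each with r of at least 0.9998. With those means removed, each r rests on only 3 differences, 1 per number. These 10 are the highest of many values over only 6 libraries that share 2 groups, and they describe likeness only. Their paired log2 fold changes ran from -0.43 (H2-Ke6) to -0.14 (Tmem256), all smaller in size than that of Lpl. Of the other members, Plin2 ran opposite to Lpl (r -0.83), and the other 6 had r between -0.08 (Pparg) and 0.26 (Cebpd).

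The fold changes were also computed under 23 settings of scaling, filter, test, pairing and libraries left out. Lpl kept its direction in all 23, between -0.98 and -0.71, and was called in 11 of them. These were the paired settings and, without pairing, DESeq2 alone. Plin2 also kept its direction in all 23, between 0.13 and 0.26, and was called in 1. The other 6 members each took both signs. All settings reuse the same libraries, and the groups of Lpl and Plin2 did not overlap. A constant sign for these genes was thus favoured in advance and is description only.

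**Figure D4:**
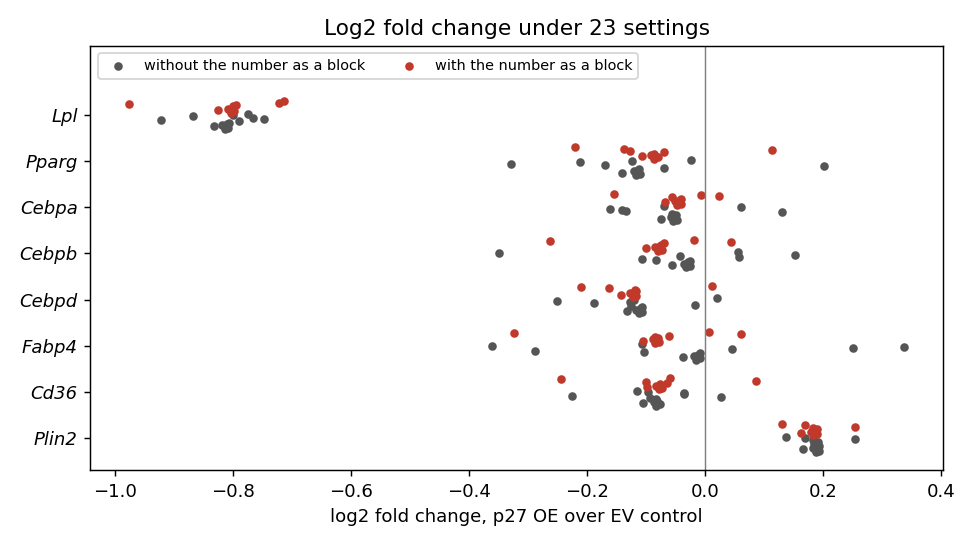
Log2 fold change of p27 OE over EV control (horizontal axis) for each gene under 23 settings, 1 point per setting. Grey points are fits without the number as a block and red points fits with it. Lpl lies between -0.98 and -0.71, apart from the other 7 genes.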

How the data were processed

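RNA was column-extracted and sequenced from TruSeq v2 libraries, a kit without strand marks, per the labels' protocols. What the authors deposited is 1 table of raw counts, by gene symbol, for the 6 libraries. Subread, featureCounts 1.4.6, Bowtie2 2.2.6 and TopHat2 2.0.14 are named with build mm10 in the submitters' processing notes. The sources used here give no annotation, strand setting or handling of multi-mapping reads.

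Groups and numbers came from titles. Genes were kept with filterByExpr (minimum count 10, minimum total 15) and scaled by TMM. The test was edgeR 4.0.16 (quasi-likelihood, robust, two-sided, in R 4.3.3), with Benjamini-Hochberg adjustment over all tested genes and a threshold of 0.05, without the number and, as an alternative, with it as a block. SE came from the F statistic. DESeq2 1.42.0 and limma-voom (limma 3.58.1) were alternatives. Deviations from group means correlated at 0.77 between the libraries numbered 1, at 0.42 for number 2 and at 0.54 for number 3, each over 0.1, so paired values stand beside unpaired ones. Across numbers, 2 with 3 correlated at 0.39 (EV control 2) and 0.41 (EV control 3). By these correlations the pairing of numbers 2 and 3 rests on the titles. Xist was at 5.93 CPM (EV control 2) and 9.57 CPM (p27 OE 2), against 0.60 CPM (EV control 3) and 0.50 CPM (p27 OE 3). Whether a number marks a shared culture was not tested. The closest replicates differed by a mean chi-square per gene of 9.67, so none was a repeat of another.

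Members and lists were chosen with earlier results of these data known. Named from each list were up to 5 called genes with the smallest p and the most abundant gene, and from each marker list up to 3 called genes and the most abundant tested one. Calls were taken from the paired fit because the unpaired fit called none in any list. Other genes are said to be chosen after their values were seen. In the list of inhibitors of adipogenesis 1 gene is not reported here and is not counted. Likeness to Lpl used log2 CPM with a prior count of 2. Exon lengths and positions came from GENCODE M21 (GRCm38), which gave a length for 13429 tested genes. No exact permutation test was run, since 3 against 3 cannot reach a p below 0.1.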

Additional observations from a re-analysis of the deposited data

How the results depend on the processing

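Over 23 settings, with and without the replicate number as a block, the log2 fold change of Lpl was negative in each (from -0.98 to -0.71) and that of Plin2 positive in each (from 0.13 to 0.26). The other 6 members took both signs. Since the settings share libraries in which the groups of Lpl and Plin2 did not overlap, their constant sign is description only. Leaving out 1 library without pairing gave -0.92 to -0.75 for Lpl. The paired fit without replicate 1 gave the lowest value of Lpl, -0.98. The log2 ratio of Lpl was -0.47 in number 1, against -0.96 and -0.98 in numbers 2 and 3. Why it was smaller in number 1 was not tested. Without pairing, 0 genes were called with RLE or upper-quartile scaling, the filter of 1 CPM in 3 libraries and limma-voom. Without a filter 1 gene was called higher, and leaving out 1 library gave 0 or 1. DESeq2 called 53 higher and 36 lower, with 1 list gene (Hspg2, higher) and 1 member (Lpl).

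With the replicate block, the genes called higher and lower were 535 and 512, with RLE scaling 567 and 475, with upper-quartile scaling 483 and 736, without a filter 689 and 727, with the 1 CPM filter 543 and 475, in DESeq2 479 and 351, and in limma-voom 457 and 372. The list genes called higher and lower in the same order of settings were 2 and 3, 2 and 2, 1 and 12, 2 and 11, 2 and 2, 2 and 2, and 3 and 2, with 1 member, Lpl, called in each. Without both libraries of a number, the paired fit called from 224 to 893 higher and from 106 to 848 lower genes (503 and 425 without number 2), from 2 to 7 higher and from 2 to 9 lower list genes, and 1 or 2 members. The second was Plin2 without number 1 and Fabp4, lower, without number 2. These fits rest on 2 pairs. In the paired fit the members at low counts, Pparg and Cd36, have the widest intervals, and without pairing Fabp4 has the widest.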

Other observations

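Across the same 23 settings, Fabp4 had the widest range of log2 fold changes of the 8 members, from -0.36 to 0.34, and a within-group SD of 0.76 on the log2 scale, against 0.16 for Lpl and 0.09 for Plin2. The plot of values by library shows this as the distance between number 1 and the other numbers.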
